A study of Mus musculus with 16 samples.

Results

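The cornified envelope and barrier genes were followed in healing skin wounds of mice. The set took every probe set whose only platform gene symbol began with Lce or Sprr, or was 1 of a list of envelope precursors, cross-linking enzymes, proteases and their inhibitors, junction proteins, lipid enzymes and transcription factors of the outer epidermis. It held 60 probe sets of 48 genes, among 34945 probe sets with 1 gene symbol (18193 genes) and 45101 in all. 3 further probe sets shared by several Sprr2a genes were left out by this rule. 10 member genes had more than 1 probe set, and 10 member probe sets carried the suffix s or x, which marks probes that can match related transcripts. Those 10 may read relatives in part, so their values are uncertain as values of a single gene.

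RNA was measured on 16 Affymetrix GeneChip arrays of dorsal incisional wounds from C57BL/6 mice, all labelled female and described as wild type. A murine model of hypertrophic scarring was used, in which healing incisions are pulled mechanically. The 4 groups of 4 arrays were unstressed and stressed wounds at day 6, after 48 hours of loading in the stressed group, and unstressed and stressed wounds at day 14, after 10 days of loading. Each group of a time point came from 4 mice by the design text, and the labels do not say whether a mouse carried both kinds of wound. Values were deposited as log signals centred per probe set. They were read as log2, although natural logs are possible, and 0 is no absolute level. Neither a level nor the presence of a marker could therefore be judged, and only differences between arrays are described. In RNA from whole wounds, fewer cells of a type and less RNA per cell cannot be told apart.

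The cornified envelope is the protein shell that replaces the membrane of a keratinocyte as it dies at the skin surface. Precursors such as loricrin, involucrin, the small proline-rich (Sprr) proteins and the late cornified envelope (Lce) proteins are joined by transglutaminases, and lipids are bound to the outside. Kallikrein proteases, held back by inhibitors, later cut the junctions that keep dead cells attached. Many of the precursors are encoded side by side in the epidermal differentiation complex, and 27 of the 48 member genes lay in that stretch of 49 protein-coding genes on mouse chromosome 3 in the RefSeq order (assembly GRCm38.p6).

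The arrays fell into 2 kinds by Xist, which is transcribed from the inactive X. In replicates 3 and 4 of both day 14 groups the highest Xist probe set read 5.98 to 7.86, and in the other 12 arrays -0.30 to 0.81. The mean of 9 Y-linked probe sets ran the other way, from -1.68 to -1.34 in those 4 arrays and from -0.21 to 0.27 in the rest, although all arrays are labelled female. At day 14 each group held 2 arrays of each kind, while every day 6 array was of low Xist, so part of the time comparison cannot be told apart from the kind of array. Values within the kinds are given where a result rests on them.

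Unstressed wounds of day 6 held the 3 arrays with the highest medians over the 60 members. There the median was 0.33, -0.01, 0.76 and 0.86 in replicates 1 to 4. In stressed wounds of day 6 it was 0.18, 0.23, -0.02 and -0.07. At day 14 it was -0.52, -0.81, -1.31 and -0.79 in unstressed wounds and -0.24, -0.60, -0.69 and -1.79 in stressed wounds. All 8 arrays of day 14 lay below all 8 arrays of day 6, and at each day the unstressed and stressed arrays overlapped.

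**Figure D1:**
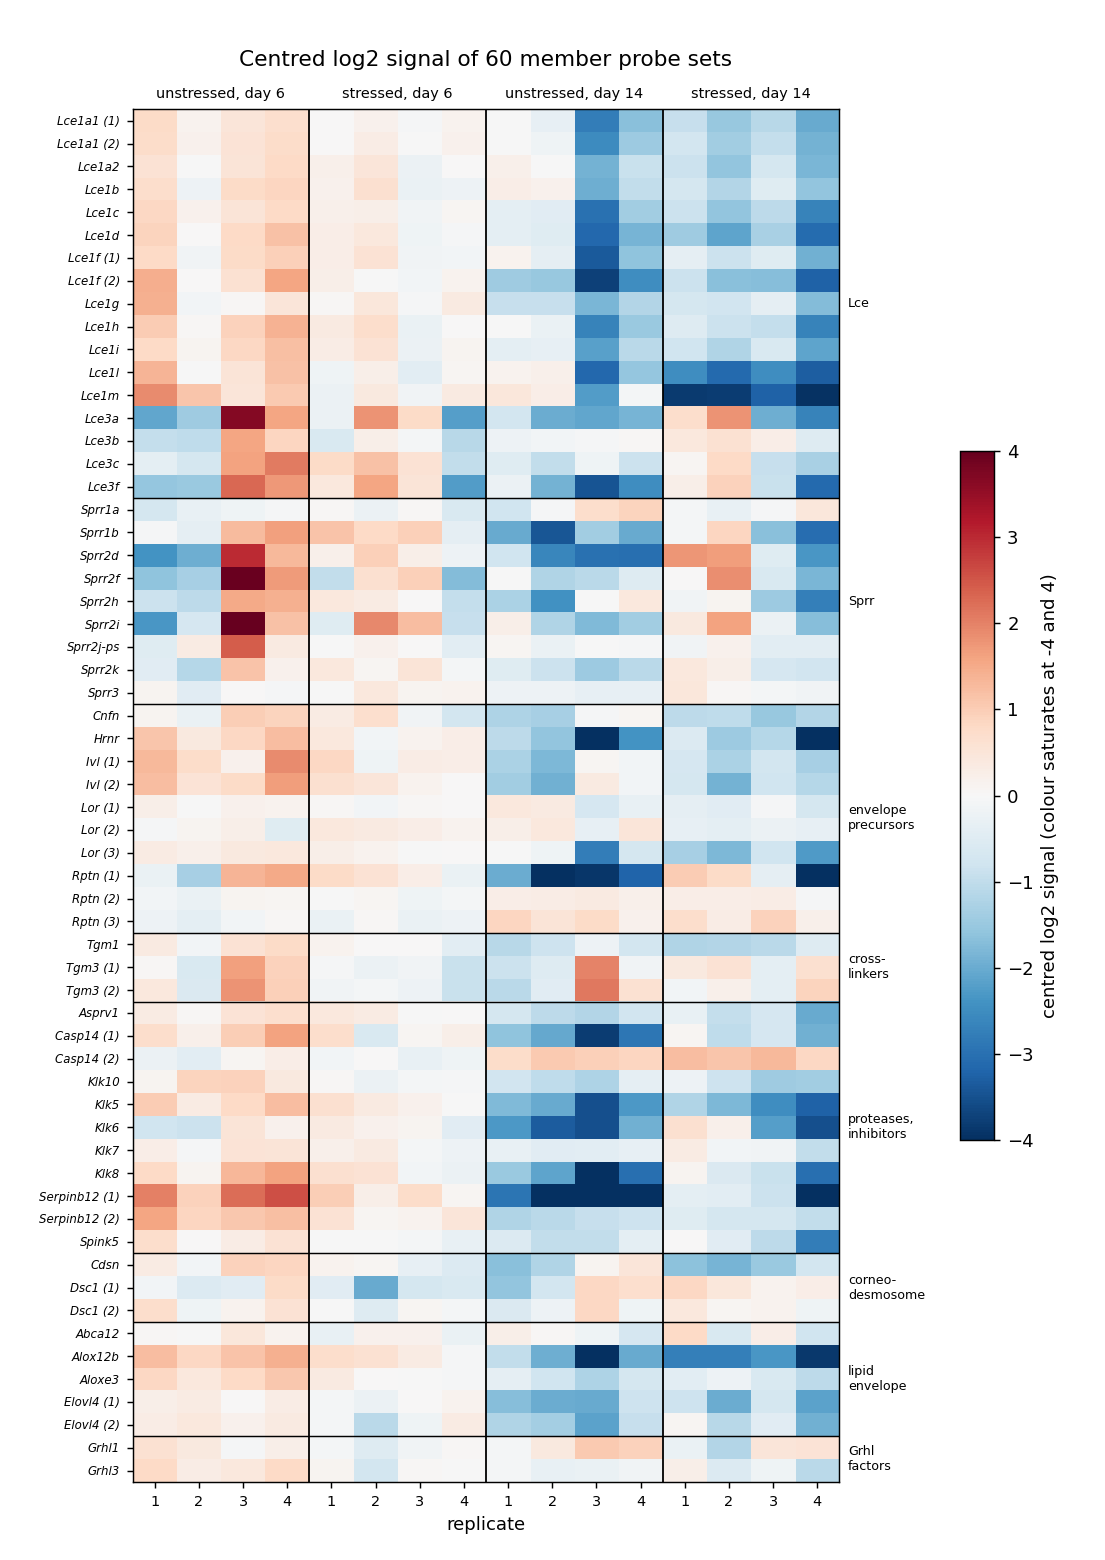
Centred log2 signal of the 60 member probe sets (rows, grouped by role; a number in brackets tells probe sets of 1 gene apart) in the 16 arrays (columns, replicates 1 to 4 of each group); red is above and blue below the reference of the centring, and the colour saturates at -4 and 4. Most members are red in unstressed wounds at day 6 and blue at day 14, while the Sprr2 and Lce3 probe sets differ between replicates of the same group.

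The Sprr2 and Lce3 families varied widely among replicates of 1 group. Sprr2 proteins are small cross-bridging precursors that skin makes under stress, and Lce3 proteins are known from injured and psoriatic skin. In unstressed wounds of day 6 the median of the 6 Sprr2 probe sets was -1.24, -1.08, 2.71 and 1.24 in replicates 1 to 4. Replicates 1 and 2 were low and replicates 3 and 4 high. The 4 Lce3 probe sets split the same arrays, with medians of -1.25, -1.22, 1.95 and 1.65. The 13 Lce1 probe sets did not follow this split, with medians of 0.82, 0.02, 0.54 and 0.95. Across these 4 replicates Sprr2i spanned 6.64 on the log2 scale, Lce3a 5.76, Sprr2f 5.54 and Sprr2d 5.36, whereas the Lor probe sets spanned 0.22 to 0.74. The mean of 7 probe sets of wound-edge keratins (Krt6a, Krt6b, Krt16 and Krt17, made by keratinocytes closing a wound) was -1.20, -1.37, 0.41 and -0.35 in the same arrays, and its part in the split was not tested.

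A second split appeared in stressed wounds of day 14. The Sprr2 median was 0.21 and 0.92 in replicates 1 and 2 and -0.54 and -1.77 in replicates 3 and 4. For Lce3 it was 0.32 and 0.86 against -0.91 and -1.98. Here the low arrays were those of high Xist. Wound-edge keratins read 0.40 and 0.35 in the first pair and -0.41 and -1.65 in the second. None of the 6 Sprr2 and 4 Lce3 probe sets passed the test in the comparisons of all 16 arrays below.

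**Figure D2:**
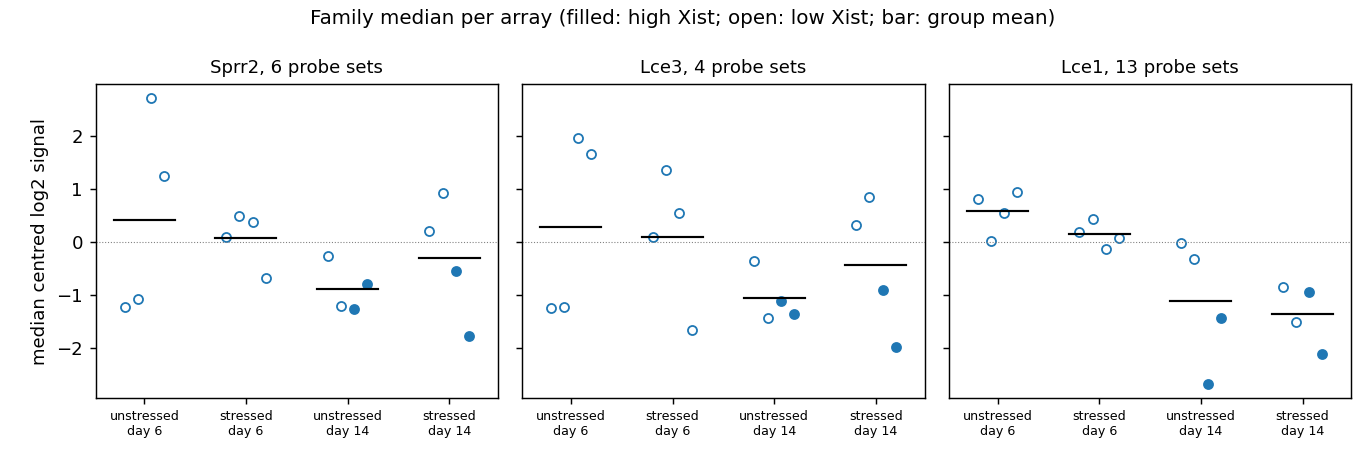
Median centred log2 signal per array over the probe sets of the Sprr2, Lce3 and Lce1 families (points, 4 per group; filled where Xist was high, open where low), with the mean of the 4 arrays as a bar. In unstressed wounds of day 6 the Sprr2 medians run from -1.24 to 2.71 and the Lce1 medians only from 0.02 to 0.95.

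Promoter sequence was at hand for 43 of the 48 member genes, in RefSeq windows of the assembly GRCm38.p6 that run from 250 bases before a transcription start to 50 bases after it. The windows of genes that moved with the Sprr family or stood out under loading are shown, as the 250 bases before the start, 5′ to 3′ on the strand of the gene. Capitals mark the AP-1 motif TGANTCA and the TATA motif TATAAA, each searched on both strands. AP-1 is the Fos and Jun factor that stressed keratinocytes use.

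Sprr2d, chr3:92338890-92339139, plus strand: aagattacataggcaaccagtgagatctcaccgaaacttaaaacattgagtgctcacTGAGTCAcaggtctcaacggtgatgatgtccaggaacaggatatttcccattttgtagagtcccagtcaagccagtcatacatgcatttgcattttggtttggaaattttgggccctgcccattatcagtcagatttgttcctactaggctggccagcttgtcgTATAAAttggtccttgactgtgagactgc
Sprr2i, chr3:92407741-92407990, plus strand: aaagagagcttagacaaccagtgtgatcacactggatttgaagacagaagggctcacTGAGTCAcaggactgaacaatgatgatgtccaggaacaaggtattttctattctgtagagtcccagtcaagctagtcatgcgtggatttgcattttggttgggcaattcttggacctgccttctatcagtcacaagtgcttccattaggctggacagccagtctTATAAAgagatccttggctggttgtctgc
Sprr1b, chr3:92438780-92439029, minus strand: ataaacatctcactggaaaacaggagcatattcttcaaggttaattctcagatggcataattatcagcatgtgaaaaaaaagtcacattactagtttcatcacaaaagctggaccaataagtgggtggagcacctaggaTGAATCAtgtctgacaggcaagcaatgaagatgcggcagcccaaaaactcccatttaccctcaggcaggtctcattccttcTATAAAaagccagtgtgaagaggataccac
Rptn, chr3:93393449-93393698, plus strand: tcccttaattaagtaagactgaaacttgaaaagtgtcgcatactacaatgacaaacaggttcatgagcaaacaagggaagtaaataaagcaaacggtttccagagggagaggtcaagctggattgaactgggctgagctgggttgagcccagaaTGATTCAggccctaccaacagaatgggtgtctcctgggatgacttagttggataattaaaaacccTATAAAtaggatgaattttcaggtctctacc
Serpinb12 start 1, chr1:106934199-106934448, plus strand: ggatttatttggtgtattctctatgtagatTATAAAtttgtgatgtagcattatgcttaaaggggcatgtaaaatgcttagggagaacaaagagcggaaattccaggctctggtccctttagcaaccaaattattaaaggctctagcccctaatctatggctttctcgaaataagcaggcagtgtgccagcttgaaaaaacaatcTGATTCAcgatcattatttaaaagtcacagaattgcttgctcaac
Serpinb12 start 2, chr1:106938707-106938956, plus strand: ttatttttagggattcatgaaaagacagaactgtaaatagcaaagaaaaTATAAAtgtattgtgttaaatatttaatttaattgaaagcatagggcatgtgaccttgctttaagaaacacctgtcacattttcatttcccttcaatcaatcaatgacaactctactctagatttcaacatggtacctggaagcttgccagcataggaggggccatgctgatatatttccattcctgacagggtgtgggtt
Lce1m, chr3:93019062-93019311, minus strand: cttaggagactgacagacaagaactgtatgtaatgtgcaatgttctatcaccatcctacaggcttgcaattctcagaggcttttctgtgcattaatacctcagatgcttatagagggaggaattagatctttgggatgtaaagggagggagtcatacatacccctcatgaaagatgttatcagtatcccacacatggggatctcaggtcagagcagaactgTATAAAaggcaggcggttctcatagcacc

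The Sprr windows resembled each other in these letters. The AP-1 motif was present in 7 of the 8 Sprr windows (87.5%), in 0 of the 14 Lce windows and in 4 of the other 26 member windows, those of Ivl, Lor, Rptn and Serpinb12. Of all 32851 windows in the table, 7.81% held it. Its distance from the start was 193 bases in both Sprr2d and Sprr2i, 111 in Sprr1b, 96 in Rptn and 45 at the first start of Serpinb12. TATAAA, a motif added after the sequences had been read, was found in 8 of 8 Sprr windows, 2 of 14 Lce windows and 13.6% of all windows. A Grainyhead-like motif (AACNGGTT) occurred in 1 of the 48 member windows, that of Rptn, against 2.09% of all windows. For a C/EBP motif (TTGCNNAA) the count was 7 of 48, against 10.8% of all, and for an AP-2 motif (GCCNNNGGC) 7 of 48, against 16.6%. A match is a description of the letters and is no evidence of binding.

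From day 6 to day 14 most barrier members fell in unstressed wounds. A probe set counts as called when its limma p was under 0.05 after Benjamini-Hochberg adjustment across the 34945 probe sets. By that rule 37 of the 60 members (61.7%) fell, against a background of 23.4% of all probe sets, and 3 (5%) rose, against 16.8%. The median difference over members was -1.48, and over all probe sets -0.05. In 31 members (51.7%) the groups did not overlap and day 14 lay lower, which held for 21.8% of all probe sets.

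Serpinb12, a serine protease inhibitor of surface epithelia, fell most. Its probe set 1429297_at read 2.01, 0.91, 2.24 and 2.57 at day 6 and -2.92, -3.996, -5.97 and -4.49 at day 14. The groups lay far apart, with a difference of -6.28 ± 0.78 (SE, n = 4 against 4, limma adjusted p = 4.1e-05). Its other probe set, 1432173_at, fell by 2.20. Among the kallikreins, which cut the junctions between dead cells, Klk8 read 0.78, 0.11, 1.33 and 1.60 at day 6 and -1.49, -2.10, -4.62 and -3.03 at day 14. That was a difference of -3.77 ± 0.65 (limma adjusted p = 0.00044). Klk5 fell by 3.24, Klk6 by 2.52, Klk10 by 1.42 and Klk7 by 0.69. Casp14, the caspase of cornifying cells that helps to process filaggrin, fell by 3.45 on its probe set 1418748_at. In all, 10 of the 11 probe sets of proteases and inhibitors fell.

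The Lce1 family fell as a whole in unstressed wounds: 13 of 13 probe sets were called lower, with differences from -3.19 to -1.13. Lce1f (1449902_at) had the largest, reading 1.47, 0.02, 0.60 and 1.57 at day 6 and -1.41, -1.52, -3.73 and -2.47 at day 14. Lce1 proteins are the late precursors of normal interfollicular epidermis. Of the 4 Lce3 probe sets none was called, with differences from -2.26 to -0.19. Of the 9 Sprr probe sets 1 fell, Sprr1b, by 2.82.

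Among the other precursors, Hrnr and Rptn, both S100-fused proteins of the filaggrin kind, had the largest changes. Hrnr read 1.10, 0.39, 0.82 and 1.25 at day 6 and -1.03, -1.58, -4.24 and -2.38 at day 14, a difference of -3.20 ± 0.76 (limma adjusted p = 0.004). The Rptn probe set 1420431_at fell by 3.66, while 1433211_at and 1433210_at of the same gene rose by 0.75 and 0.33. Both Ivl probe sets fell, by 1.80 and 1.81. For Lor 1 of 3 probe sets fell (1448745_s_at, by 1.24), and the others differed by -0.18 and 0.25. Casp14 resembled Rptn in that its second probe set, 1443787_x_at, rose by 0.98. These 3 called higher probe sets thus all came from genes with another probe set that fell.

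The enzymes of the lipid envelope fell with the precursors. Alox12b, a lipoxygenase that prepares ceramides for binding to the envelope, read 1.23, 0.82, 1.13 and 1.43 at day 6 and -0.99, -1.94, -4.02 and -2.01 at day 14. The difference was -3.39 ± 0.47 (limma adjusted p = 9e-05). Its partner Aloxe3 fell by 1.56, and both probe sets of Elovl4, which lengthens fatty acids for those ceramides, fell by 1.84 and 1.72. Abca12, the lipid transporter of lamellar granules, was not called (-0.29). Of the cross-linking enzymes Tgm1 fell by 1.12, and the 2 Tgm3 probe sets differed by -0.39 and -0.35 without passing the test. Cdsn, the glue protein of corneodesmosomes, fell by 1.07. Dsc1, a desmosomal cadherin of the upper layers, was not called on either probe set. Of the 2 Grainyhead-like factors Grhl3 fell by 0.78, and Grhl1 differed by 0.29.

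In stressed wounds 27 of the 60 members (45%) fell over the same interval, against a background of 26.6%, and 3 (5%) rose, against 18.7%. The median difference over members was -1.001, and over all probe sets -0.07. Day 14 lay lower without overlap in 28 members (46.7%), and in 23.4% of all probe sets. The largest fall was that of Lce1m, which read -0.23, 0.38, -0.13 and 0.35 at day 6 and -3.82, -3.81, -3.23 and -3.96 at day 14. Its difference was -3.80 ± 0.46 (limma adjusted p = 3.5e-05). Alox12b fell by 3.30, Lce1l by 2.78, Klk5 by 2.47, Hrnr by 2.18, Lce1d by 2.10, Serpinb12 (1429297_at) by 2.06 and Lce1f (1449902_at) by 1.93. Of the 13 Lce1 probe sets 11 fell. No Sprr and no Lce3 probe set was called. The 3 that rose were a Dsc1 probe set (1421460_at, by 1.36), Casp14 1443787_x_at (by 1.26) and Rptn 1433211_at (by 0.70).

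**Figure D3:**
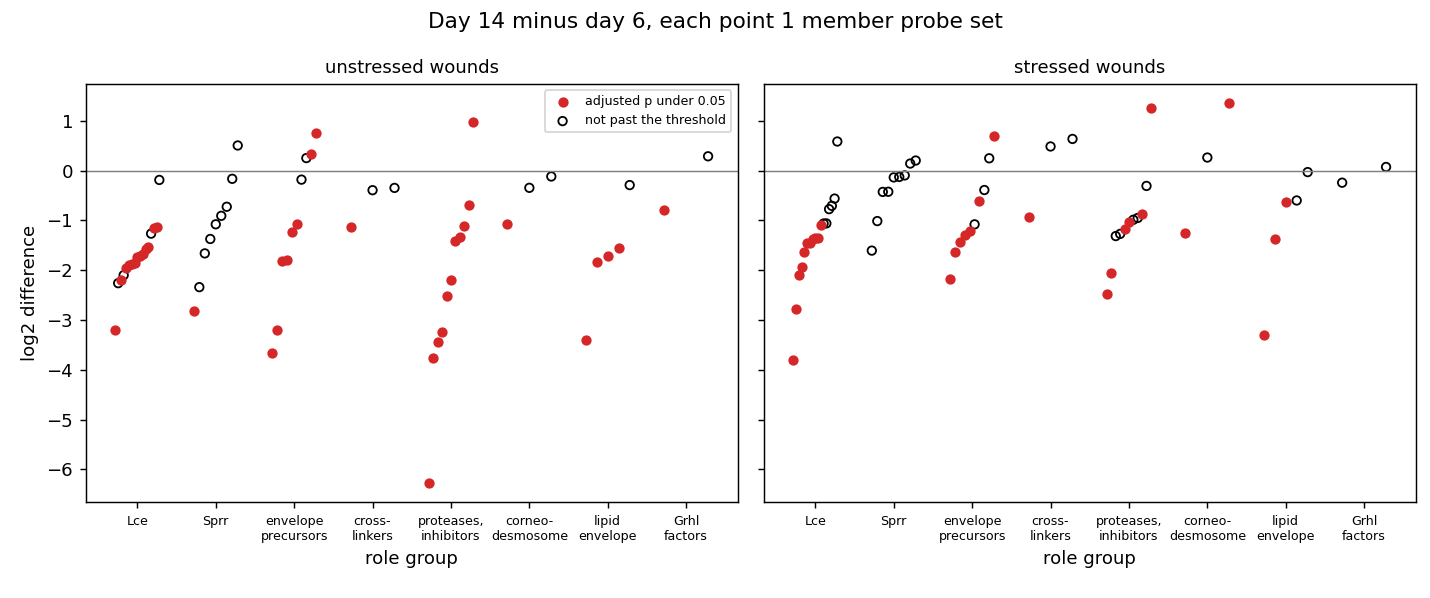
Log2 difference between day 14 and day 6 for each member probe set (points, sorted within its role group), in unstressed wounds on the left and stressed wounds on the right; red points passed limma's test at an adjusted p under 0.05. Of the 60 points, 37 are red and below 0 in unstressed wounds and 27 in stressed wounds.

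The calls overlapped in part. 26 probe sets fell in both kinds of wound, 11 were called lower only in unstressed wounds and 1, Lor 1420184_at, only in stressed wounds. The share of all probe sets called lower in both is not given here, so these counts have no background. A call in only 1 of these conditions does not show that they differ; that difference is tested below and was not passed by any member. With the low-Xist arrays alone, 35 of the 60 members were called lower in unstressed wounds, against 21.8% of all probe sets, with a median of -1.18. In stressed wounds 26 of the 60 were called lower, against 27.6% of all probe sets, with a median of -0.44. 2 of the large falls in stressed wounds leaned on 1 high-Xist array, day 14 replicate 4. Serpinb12 (1429297_at) read -4.50 there and -0.86 to -0.38 in the other arrays of its group. Hrnr read -4.85 there and -1.45 to -0.56 in the others. Without all high-Xist arrays, that array among them, Serpinb12 differed by -0.92 (limma adjusted p = 0.091). Without stressed day 14 replicate 4 alone, Hrnr differed by -1.23 (limma adjusted p = 0.071). The Serpinb12 check left out other arrays too, so it does not isolate replicate 4. Markers of several cell types moved in the same arrays. Over 10 probe sets of suprabasal keratinocyte markers the mean ran from 0.35 to 0.98 in unstressed and from 0.11 to 0.22 in stressed wounds at day 6, and from -2.22 to -0.16 and from -1.74 to -0.73 at day 14, with 6 and 5 of the 10 called lower. Over 16 hair follicle probe sets it ran from -1.68 to -0.31 and from -1.65 to 0.09 at day 6, and from 1.62 to 4.49 and from 1.13 to 4.05 at day 14, with 15 and 13 called higher. Of 14 macrophage probe sets 13 were called lower in unstressed and 10 in stressed wounds, and of 16 fibroblast probe sets 10 and 5. Of all probe sets 23.4% and 26.6% were called lower over time and 16.8% and 18.7% higher. The part of these markers in the falls was not tested.

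At day 6, after 48 hours of loading, 0 of the 60 members passed limma's test, against a background of 0.0258% of all probe sets called; 6 members had an unadjusted p under 0.05. The members nevertheless lay on the lower side. In 52 of 60 the stressed mean was below the unstressed mean, compared with 49.7% of all probe sets, and the median difference was -0.46, compared with 0.001 over all. Members share arrays and cells, so these 52 are not separate observations. Markers of several cell types were shifted in the same arrays, although none was called. The basal keratinocyte mean ran from 0.07 to 0.26 in unstressed and from -0.28 to -0.03 in stressed wounds, with 16 of 18 probe sets lower, and 9 of 10 suprabasal probe sets lay lower. Fibroblast markers ran from -0.27 to 0.08 and from 0.14 to 0.40, with 15 of 16 higher. All 14 macrophage and all 7 wound-edge keratin probe sets lay higher, by medians of 0.35 and 0.73. Their part in the member differences was not tested. In 7 members the groups did not overlap and stressed wounds lay lower, which held for 3.05% of all probe sets; these were Lce1m, Serpinb12 (1432173_at), Alox12b, Grhl3, Aloxe3, Klk10 and Spink5. No member lay higher without overlap, which 3.11% of all probe sets did.

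The smallest adjusted p at day 6 was that of Serpinb12 1432173_at, which read 1.59, 0.86, 1.09 and 1.22 in unstressed wounds and 0.59, 0.07, 0.13 and 0.48 in stressed wounds. Each stressed array was below each unstressed array, and the difference was -0.87 ± 0.17 (limma adjusted p = 0.14). The other Serpinb12 probe set differed by -1.42 and was the largest among proteases and inhibitors. Lce1m read 1.90, 1.11, 0.47 and 1.06 against -0.23, 0.38, -0.13 and 0.35, a difference of -1.04 ± 0.46 (limma adjusted p = 0.83). The means of all 17 Lce probe sets lay lower in stressed wounds, by between 0.19 and 1.04 on the log2 scale. For part of the family this rested on single arrays, in a check chosen after seeing the data. Without unstressed replicate 3, Lce3a, Lce3f and Lce3c differed by 0.67, 0.49 and 0.055, and the same 3 by 0.33, 0.57 and 0.19 without stressed replicate 4. Lce3f and Lce3c were also positive without unstressed replicate 4 (0.30 and 0.22), and Lce1g was without unstressed replicate 1 (0.068). In the other roles the largest differences were -0.98 for Tgm3 (1440150_at), -0.96 for Sprr2f, -0.86 for Dsc1 (1421460_at), -0.76 for Alox12b, -0.74 for Ivl (1439878_at) and -0.73 for Grhl3. The Sprr2f difference rested on its high unstressed replicate 3, at 3.94, and was 0.13 without that array. Sprr members did not share the lower side, with 5 of 9 higher and a median of 0.01.

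At day 14, after 10 days of loading, 3 of the 60 members passed limma's test, against a background of 7.35%. Of these 1 fell, against 4.04% of all probe sets, and 2 rose, against 3.31%. As many members lay higher as lower, 30 each, where 50.8% of all probe sets lay higher. The median difference was -0.0004 over members and 0.005 over all probe sets. The groups did not overlap in 2 members, Lce1m and Sprr3, and in 10.1% of all probe sets. 10 members had an unadjusted p under 0.05.

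Lce1m was the member that fell, on a probe set with the suffix s. It read 0.44, 0.25, -2.24 and -0.07 in unstressed wounds and -3.82, -3.81, -3.23 and -3.96 in stressed wounds. Every stressed array lay below every unstressed array, and the stressed arrays were close together (SD 0.32, against 1.24 in unstressed wounds). The difference was -3.30 ± 0.46 (limma adjusted p = 0.0011). It ranged from -4.16 to -2.42 over the alternatives tried. The call was lost when only the day 14 arrays were fitted (limma adjusted p = 0.052) and when only the high-Xist arrays of day 14 were used (limma adjusted p = 0.054). Lce1m lies apart from the other Lce1 genes on the chromosome, between Crct1 and the genes towards filaggrin, and its promoter shown above holds TATAAA 29 bases before the start and no AP-1 motif. Its neighbour Crct1, a cysteine-rich protein of the same complex and no member, also fell, by 0.69 (limma adjusted p = 0.034). The 4 Lce3 probe sets, of genes on the far side of Crct1, lay higher in stressed wounds, by 0.27 to 1.29. None of them was called.

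Lce1l, the member gene next to Kprp at the edge of the Lce1 cluster, came closest to Lce1m in its arrays. It read 0.13, 0.19, -3.14 and -1.55 in unstressed wounds and -2.48, -3.12, -2.49 and -3.29 in stressed wounds. The groups overlapped through unstressed replicate 3, and the difference was -1.75 ± 0.56 (limma adjusted p = 0.069). The 11 other Lce1 probe sets differed by between -0.59 and 0.42, with a median of -0.19, and none was called.

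**Figure D4:**
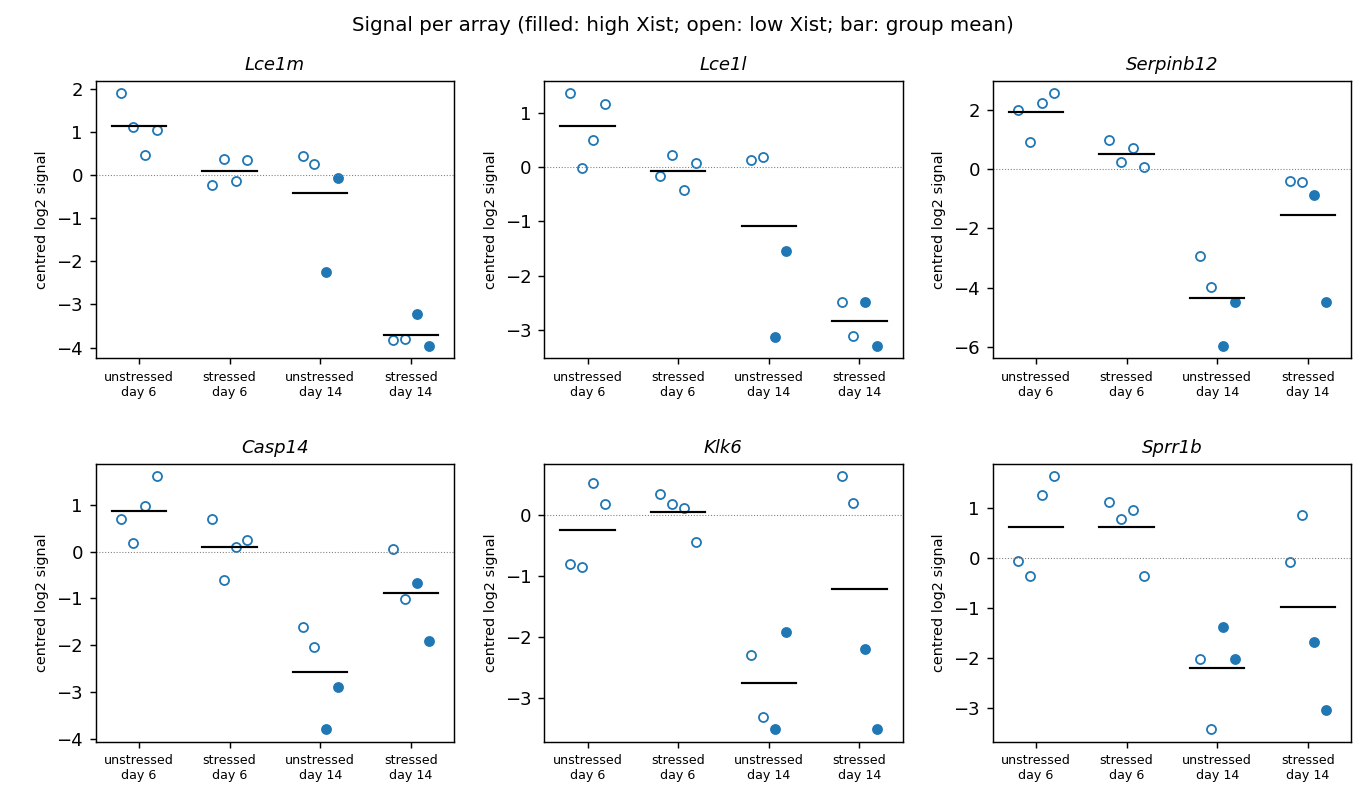
Centred log2 signal per array (points, 4 per group; filled where Xist was high, open where low) with the group mean as a bar, for Lce1m, Lce1l, Serpinb12 (1429297_at), Casp14 (1418748_at), Klk6 and Sprr1b. In Lce1m the 4 stressed arrays of day 14 lie from -3.96 to -3.23, below all 12 other arrays, while Klk6 and Sprr1b are highest among the day 14 arrays in the 2 low-Xist stressed ones.

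The members that rose under loading at day 14 were Serpinb12 and Casp14. Serpinb12 1429297_at read -2.92, -3.996, -5.97 and -4.49 in unstressed wounds and -0.38, -0.43, -0.86 and -4.50 in stressed wounds. Stressed replicates 1 to 3 lay above all unstressed arrays, while replicate 4 lay among them. The difference was 2.80 ± 0.78 (limma adjusted p = 0.041), and 3.79 without stressed replicate 4. Casp14 1418748_at read -1.60, -2.05, -3.78 and -2.88 against 0.06, -1.02, -0.66 and -1.91, with an overlap of a single stressed array, and differed by 1.70 ± 0.47 (limma adjusted p = 0.041). The second probe sets of these genes differed by 0.29 and 0.22 and were not called.

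Both calls were lost under several alternatives, while the differences stayed positive, from 1.94 to 3.79 for Serpinb12 and from 1.12 to 2.05 for Casp14. After quantile normalization Serpinb12 differed by 1.94 (limma adjusted p = 0.24) and Casp14 by 1.12 (limma adjusted p = 0.32). With the day 14 arrays alone the differences were the same and the adjusted p was 0.19 and 0.16 by limma. The Serpinb12 call was also lost without any of unstressed replicates 2, 3 or 4 or stressed replicates 1, 2 or 3 (adjusted p of 0.066 to 0.14), and the Casp14 call without any of unstressed replicates 3 or 4 or stressed replicates 1, 2 or 3 (adjusted p of 0.076 to 0.13) or without all high-Xist arrays (adjusted p of 0.072 by limma).

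Elsewhere at day 14 the largest differences of each role did not pass the test. Rptn 1420431_at read -1.97, -4.25, -3.90 and -3.21 in unstressed wounds and 1.01, 0.77, -0.36 and -4.40 in stressed wounds, a difference of 2.59 ± 0.96 (limma adjusted p = 0.11). Sprr2d read -0.80, -2.61, -2.99 and -3.002 against 1.75, 1.68, -0.48 and -2.31, a difference of 2.51 ± 1.07 (limma adjusted p = 0.17). In both genes stressed replicate 4 lay with the unstressed arrays, and without it both were called, at 3.81 for Rptn (limma adjusted p = 0.0021) and 3.34 for Sprr2d (limma adjusted p = 0.048). The remaining roles gave -0.86 for Cdsn, -0.68 for Grhl1, -0.67 for Alox12b and -0.27 for Tgm1, and single arrays moved each of them. Alox12b was called at -1.26 without unstressed replicate 3 (limma adjusted p = 0.036) and without the high-Xist arrays (limma adjusted p = 0.015), and differed by -0.25 without unstressed replicate 1. Cdsn differed by -0.50 without unstressed replicate 4, Grhl1 by -0.32 without stressed replicate 2, and Tgm1 by -0.11 without unstressed replicate 3. Grhl1 was called with the Xist kind as a covariate (limma adjusted p = 0.039).

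**Figure D5:**
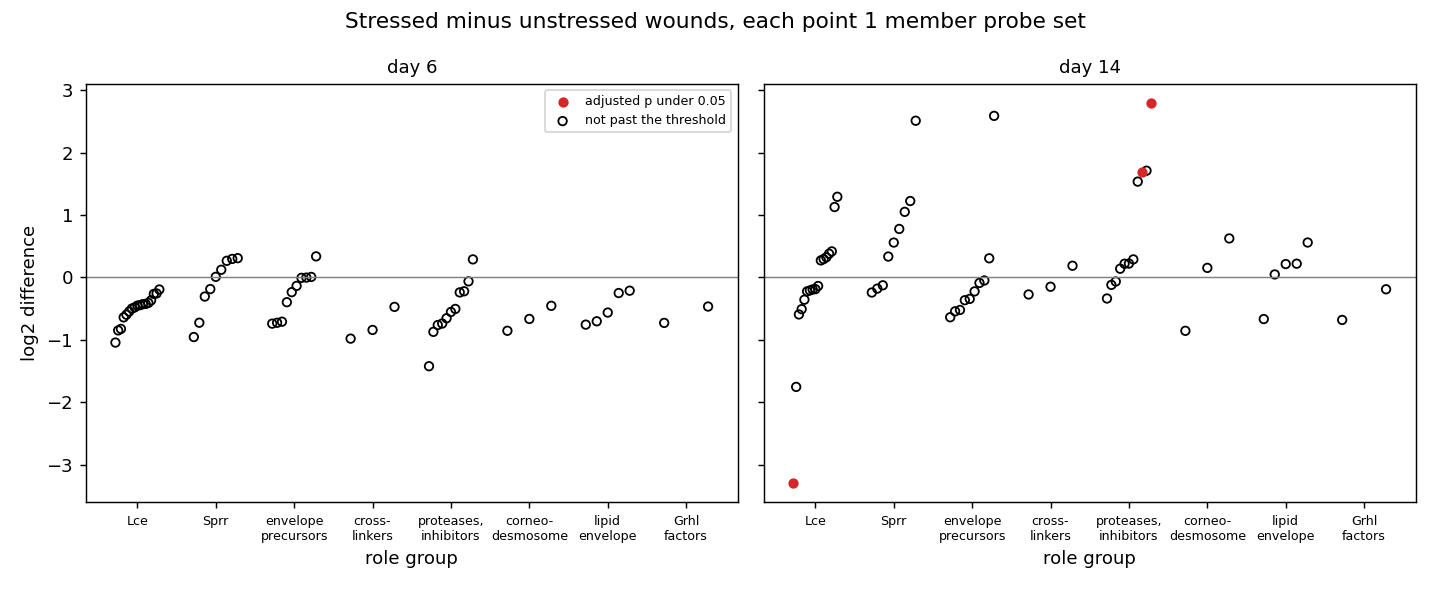
Log2 difference between stressed and unstressed wounds for each member probe set (points, sorted within its role group), at day 6 on the left and day 14 on the right; red points passed limma's test at an adjusted p under 0.05. At day 6 no point is red and 52 of 60 lie below 0; at day 14 the red points are Lce1m at -3.30, Casp14 at 1.70 and Serpinb12 at 2.80.

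Other cell types moved with loading at day 14 in the same arrays. Of all probe sets 3.31% were called higher and 4.04% lower. Called higher were 10 of 16 fibroblast and 9 of 14 macrophage probe sets. Called lower were 9 of 16 skeletal muscle and 9 of 11 adipocyte probe sets. By sign 14 of 16 fibroblast and all 14 macrophage probe sets lay higher, and all muscle and adipocyte probe sets lower. The mean of the fibroblast probe sets ran from -2.05 to -0.86 in unstressed and from -0.13 to 0.18 in stressed wounds. For muscle the ranges were -1.13 to 0.88 and -3.38 to -0.16. Of 10 probe sets of suprabasal keratinocyte markers 4 lay higher and 6 lower, with a median of -0.17. The only one called was Krt77, a keratin of the upper layers, which fell by 3.07 (limma adjusted p = 0.0064), while Krt1, another keratin of those layers, had the highest difference, 1.32 (limma adjusted p = 0.2). Of 7 wound-edge keratin probe sets 5 lay higher and 2 lower, with a median of 0.93. Of 16 hair follicle probe sets 1 lay higher and 15 lower, with a median of -0.74. No probe set of these 2 lists was called. The part of these shifts in the member differences was not tested.

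Loading at day 14 was also fitted within each kind of array. Within the low-Xist arrays, 2 against 2, 5 members rose and 5 fell when each kind had its own mean in a limma fit of all 16 arrays. Each count was 8.33% of the members, near the backgrounds of 6.51% and 8.61%. The risers were Rptn 1420431_at (4.00), Klk6 (3.22), Sprr1b (3.11), Serpinb12 1429297_at (3.05) and Dsc1 1421460_at (1.80). Lce1m (-4.16), Lce1l (-2.96), Lce1a2 (-1.31), Grhl1 (-0.88) and Lor 1420183_at (-0.80) fell. Within the high-Xist arrays no member rose and 2 fell, Lce1m (-2.43) and Cdsn (-1.41), against backgrounds of 1.45% and 1.04%. All 9 Sprr probe sets lay higher in stressed wounds in the low-Xist arrays, with a median of 1.49, but only Sprr1b was called. The 9 share arrays and cells and are not separate observations. The share of all probe sets that lay higher in this fit is not given here. In the high-Xist arrays 4 of 9 lay higher, with a median of -0.38.

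Klk6 had the smallest adjusted p for a difference between the kinds. It read -2.29 and -3.31 in the unstressed and 0.63 and 0.20 in the stressed low-Xist arrays, but -3.50 and -1.92 against -2.20 and -3.51 in the high-Xist arrays. The difference between the kinds was itself tested. No member passed, against a background of 1.47%, and the smallest adjusted p in limma were 0.057 for Klk6 (-3.36 ± 0.82), 0.074 for Sprr1b (-3.76 ± 0.99) and 0.08 for Sprr2h (-4.14 ± 1.12).

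The change of the loading difference between the days was tested last; it equals the difference between the time courses of stressed and unstressed wounds. No member passed limma's test, against a background of 0.00858%, and 9 had an unadjusted p under 0.05. The difference was positive in 48 of 60 members, compared with 49.7% of all probe sets, with a median of 0.49 over members. Without the high-Xist arrays 14 members were called, 9 higher and 5 lower, where 2.74% and 5.13% of all probe sets were, and the median was 0.75. Serpinb12 had the largest value, 4.22 ± 1.10 (limma adjusted p = 0.25) on 1429297_at, and 1.16 ± 0.24 (limma adjusted p = 0.12) on 1432173_at. Lce1m had the most negative, -2.26 ± 0.65 (limma adjusted p = 0.27). Each of these rests on the same arrays as the loading and time values above, so they are no further observations.

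Genes of the same pathway outside the member rule were counted from pathway lists. Among 43 probe sets of barrier lipid enzymes, 29 fell over time in unstressed and 24 in stressed wounds, and 2 and 4 rose; the backgrounds are the 23.4% and 26.6% lower and 16.8% and 18.7% higher given above. Under loading at day 14, 1 of the 43 was called higher and 2 lower, near the 3.31% and 4.04% of all probe sets. Those shares are the day 14 loading backgrounds for the lists that follow as well. Of the 2 probe sets of Acer1, an epidermal ceramidase, 1 fell by 0.95 (limma adjusted p = 0.021). 1 of 4 of Sptlc1 fell by 0.71, and 1 of 4 of Ugcg, which makes glucosylceramide, rose by 0.85. Of 18 probe sets of further epidermal proteases and inhibitors, 5 fell over time in unstressed wounds, a share near the background, and 8 in stressed wounds, while 1, St14, rose by 0.84 in unstressed wounds. Under loading at day 14 Prss8, a membrane protease of the barrier, fell by 1.30, and 1 of 4 probe sets of Serpinb5 fell by 0.87. None of the 18 was called higher, and the highest difference was 2.34. Of 14 probe sets of further envelope-bound proteins, 7 and 6 fell over time, and 1, Scel, rose by 0.42 in unstressed wounds. Under loading at day 14, 7 of the 14 lay higher and 7 lower. S100a8, an alarmin that neutrophils also carry, was the 1 called higher, by 2.78, and Crct1 fell as given above. The highest difference among the 14 was 3.43 and was not called.

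The remaining lists moved less uniformly. In the filaggrin family Flg fell by 2.32 over time in unstressed wounds, while Tchh and Tchhl1, which belong to the hair sheath, rose by 5.99 and 5.05 there and by 4.35 and 3.12 in stressed wounds. Of 22 desmosome probe sets, 3 rose and 1 fell over time in unstressed wounds and 3 rose and 2 fell in stressed wounds. Both Dsg2 probe sets fell under loading at day 14, by 1.06 and 1.33. Of 34 probe sets of differentiation factors, Maf rose by 1.11 and 2 of Tfap2a fell, by 1.07 and 0.74, under loading at day 14. These counts too are near the backgrounds. Of 11 tight junction probe sets none was called for loading at either day. At day 6 no probe set of any of these lists was called for loading.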

How the data were processed

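RNA of wound tissue for 16 arrays, extracted with Trizol per the labels, was hybridised to Affymetrix arrays. GeneSpring GX 11.0 was the authors' software, per the series' design text; how background, summarization and normalization were done is not given in the sources used here. Values deposited by the authors were read as log2 and lie around 0 in each probe set, which removes levels. The median over the 16 arrays was within 0.001 of 0 in 6.3% of all probe sets, and the reference of the centring is not known. The values span up to 10.1 in a probe set, more than the 4.82 possible for log10 of scanner values. No sample column was left unused (0 of 16). The number of arrays limits the precision.

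Probe sets were named by the platform annotation; those of several symbols (932) or none (9224) were left out. No filter on low values was applied. Each probe set was fitted on the 4 group means of all 16 arrays with limma 3.58.1 in R 4.3.3 (lmFit, eBayes, two-sided), and 5 comparisons were tested with Benjamini-Hochberg adjustment over all 34945 probe sets and a threshold of 0.05. Fits within the Xist kinds gave each kind of a day 14 group its own mean, among all 16 arrays. The code was tested on simulated data. Figures and tables used Python 3.11.15, pandas 2.3.3 and matplotlib 3.10.9.

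Named members were those called for loading, the 8 largest called differences each way over time, and the largest loading difference of each role; those discussed by family, by Xist kind, by overlap or by promoter were chosen after their values were seen. Members and lists were chosen with earlier results of these data known. No replicates were identical (SD of differences at least 0.238). Same-numbered arrays of day 14 deviated together (correlations of 0.249, 0.172, 0.259 and 0.144 for stressed with unstressed), and those of day 6 did not (-0.42 to -0.001). At day 14 same-numbered arrays also shared the Xist kind, and arrays of other numbers were not compared, so pairing and kind cannot be told apart. The main fit used no pairs. The numbers entered only as the replicate block among the alternatives, a basis that comes from the data and not from the labels. Alternatives changed the normalization, weights, variance prior, replicate block, Xist kind, probe set choice, variance filter, arrays fitted and single arrays.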

Additional observations from a re-analysis of the deposited data

Results flagged for a closer look

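In 5 cases a single array lay far from the other 3 of its group by Dixon's test at its 95% limit, among 92 groups tested; chance gives about 1 in 20 such groups, or 5%. Serpinb12 1429297_at read -4.50 in stressed day 14 replicate 4, where the other 3 arrays read -0.86 to -0.38. Rptn 1433210_at read -0.055 in the same array, where the others read 0.25 to 0.29. Dsc1 1421460_at read -2.01 in stressed day 6 replicate 2, against -0.69 to -0.45, and Grhl3 read -0.73 in that array, against -0.01 to 0.10. Tgm3 1440150_at read -0.91 in stressed day 6 replicate 4, against -0.21 to -0.08.

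A signal also appeared in probe sets that the comparisons did not use. A probe set shared by Sprr2a1 and Sprr2a2 (1437258_at) read -0.31, -0.97, 1.05 and -0.62 in unstressed and 1.62, 1.32, 2.09 and 1.65 in stressed wounds at day 6. The groups did not overlap, the difference was 1.89, and the two-sided exact permutation test gave p = 0.0286, the smallest that 4 against 4 allows, and 0.0857 after Benjamini-Hochberg adjustment over 6 such tests. The other 2 Sprr2a probe sets differed by 0.83 and 0.77 at day 6, with overlap (exact permutation p = 0.0857 each, adjusted 0.0857). At day 14 the 3 Sprr2a probe sets differed by 2.22, 3.39 and 3.27 (exact permutation p = 0.0571 each, adjusted 0.0857), with overlap in each.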

How the results depend on the processing

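The number of members called for loading moved most. At day 6 it was 0, and 2 with array weights, where 0.962% of all probe sets were called higher and 0.73% lower. At day 14 it was 3, and 1 after quantile normalization, 8 with array weights, 6 with Xist kind as a covariate, 17 without the high-Xist arrays, 0 with only the 2 groups compared and 0 with only the high-Xist arrays of day 14 (an alternative chosen after seeing the data). Leaving out single arrays gave 1 to 7. For the change between days it was 0, and 5 with array weights, 14 without the high-Xist arrays and 0 to 2 with single arrays left out. Of all probe sets, 0.538% were called higher and 0.498% lower at day 14 after quantile normalization, and 6.42% and 8.31% with array weights. The shares were 5.07% and 6.62% with the Xist covariate and 7.77% and 11.0% without the high-Xist arrays. With single arrays left out they ran from 1.43% to 5.35% and from 1.29% to 8.38%. For the change between days they were 0.804% and 1.67% with array weights and 2.74% and 5.13% without the high-Xist arrays. The stressed time median of -1.001 became -0.51 with the Xist covariate and -0.44 without the high-Xist arrays. With single arrays left out the Sprr2f difference at day 6 ran from -1.72 to 0.13, the last without unstressed replicate 3. The cause of these shifts was not tested. With the replicate block 0, 3 and 0 members were called for loading at day 6, at day 14 and for the change between days. Over time 40 and 33 were. The number of members called for loading was thus the same as in the main fit. Over all probe sets the shares called at day 14 were 2.77% higher and 3.49% lower with the block, and 3.31% and 4.04% without it.

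Over time 30 to 43 members were called in unstressed and 20 to 38 in stressed wounds across the alternatives. Of 39 named member differences 27 kept their direction and side of the threshold under all alternatives run. Centring hides signal over background, so faint probe sets could not be told from bright ones.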
